A study of Drosophila melanogaster with 6 samples.

Results

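The cecropin genes CecA1, CecA2, CecB and CecC and the andropin gene Anp stand together on chromosome arm 3R of Drosophila melanogaster. They were found in the deposited gene table by their FlyBase identifiers, paired with symbols in the dm6 annotation, and all 5 of 5 were present among 17558 genes.

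Cecropins are short secreted peptides that fold into helices and damage bacterial membranes, and they are best known for action on Gram-negative bacteria. After septic injury the fat body, the insect's liver-like organ, makes most of the circulating supply, and haemocytes and surface epithelia add to it. Transcription depends on NF-kB factors, mainly Relish at the end of the Imd pathway, with a contribution from Dif and Dorsal of the Toll pathway. CecA1 and CecA2 encode the same mature peptide and are the forms best known from larvae and adults, whereas CecB and CecC are known for expression at the pupal stage. Andropin is a related peptide of the male ejaculatory duct that is known to respond to mating rather than to infection.

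The study sequenced mRNA of adult male flies 12 h after Micrococcus luteus was injected. This bacterium is Gram-positive and is often used to activate Toll. The overexpressing flies made extra CR33942, a long noncoding RNA that the series also names NANPI, and were labelled Gal80ts; Tub> NANPI (3 libraries). Control flies were labelled Gal80ts; Tub-Gal4/P{CaryP}attP40 (3 libraries), where attP40 is an empty landing site for transgenes. Gal80ts is a temperature-sensitive repressor of the Gal4 driver, and Tub-Gal4 is active in nearly all tissues. Both groups carried the repressor and were injected, and no uninjected flies are in the comparison, so the values describe a difference between infected groups and not an induction. The labels give neither the age of the flies, nor the temperature shift, nor the number of flies in a library. Transgene and genetic background differ together between the groups and cannot be told apart. Nothing says that the libraries came from separate flies, so a p-value here reflects library-to-library spread, some or all of it possibly technical.

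Levels are in FPKM, a fragment count scaled by exon length and library size, as the authors deposited them. Reads recovered from those values came to between 17032191 and 19797136 per library. CR33942 itself was at 553, 589 and 563 FPKM in the overexpressing libraries, against 18.7, 19.5 and 18.9 FPKM in the control libraries, so every library matched its label. On the log2 scale it was higher by 4.83 ± 0.05 (SE, limma). Overexpressing replicate 2 stood furthest from its group: in a chi-square over recovered reads it differed from the other overexpressing libraries by 13.2 and 12.9 per gene, where those 2 differed from each other by 5.06 and pairs of control libraries by 6.94 to 7.86. Counts and calls that turn on this library are also given without it. Group changes were tested with limma on log2(FPKM + 1) over the 12326 genes with at least 1 FPKM in at least 3 libraries, and called at a Benjamini-Hochberg adjusted p under 0.05 over all of them. A log2 change is the overexpressing mean minus the control mean on that scale. All 5 members passed this filter, and their lowest value in any library was 21.2 FPKM, for CecB.

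The 5 genes lie within 6991 nt, from 30209948 to 30216938 of chromosome 3R (dm6). Anp comes first, on the plus strand (FBgn0000094, 30209948 to 30210382, 373 nt of exon). CecA1 starts 926 nt after the start of Anp (FBgn0000276, plus strand, 30210874 to 30211273, 339 nt of exon) and CecA2 after it (FBgn0000277, plus strand, 30212156 to 30212568, 355 nt of exon). CecB is the only member on the minus strand (FBgn0000278, 30213315 to 30213797, 425 nt of exon). CecC closes the cluster (FBgn0000279, plus strand, 30216484 to 30216938, 386 nt of exon). Each gene is annotated with 2 exons and a short intron. No member overlaps another annotated gene. Whether reads from unannotated transcripts on the opposite strand enter was not checked. CecA1 and CecA2 are close copies, and the sources used here do not give how reads that fit both were counted, so the split between them is uncertain. The members are also shorter than, or about as long as, the library fragments of 370 to 420 bp that the labels give, and FPKM divides by the full exon length, so levels of such short genes may be understated.

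CecA2 was the only member that limma called on all 6 libraries. It rose 3.54-fold in the overexpressing flies, to 370, 258 and 362 FPKM, against 88.0, 85.8 and 106 FPKM in the control flies. Every overexpressing library lay far above every control library, and the lowest overexpressing value was more than 2 times the highest control value. This was a log2 change of 1.80 ± 0.15 (SE, adjusted p = 0.00173 by limma), and 17 of the 12326 tested genes rose by more. The values rest on 6799 recovered reads in the overexpressing group and 1844 in the control group. CecA2 passed in each of the 6 fits that left out a library, with log2 changes of 1.71 to 1.97 and adjusted p of up to 0.0149.

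CecA1, the most abundant cecropin, did not pass. It was at 1423, 788 and 1225 FPKM in the overexpressing libraries, against 584, 657 and 406 FPKM in the control libraries, a ratio of means of 2.09. The groups did not overlap, but overexpressing replicate 2 lay much nearer to the controls than the other overexpressing libraries did. This was a log2 change of 1.05 ± 0.24 (SE, adjusted p = 0.0867 by limma). Without overexpressing replicate 2 it was 1.29 with an adjusted p of 0.0151, and in the other 5 fits that left out a library the adjusted p was 0.139 or more. A fit with limma's voom on the recovered reads, which weights genes by their counts, put the adjusted p at 0.0137.

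CecB, the least abundant cecropin, was at 65.8, 94.2 and 69.2 FPKM in the overexpressing libraries, against 38.9, 41.9 and 21.2 FPKM in the control libraries. Here overexpressing replicate 2 was the highest library of its group and control replicate 3 the lowest of its group. The groups did not overlap, and the ratio of means was 2.25. The log2 change of 1.18 ± 0.25 did not pass (SE, limma, adjusted p = 0.0632), nor did it in any of the 6 fits without a library, whereas voom on recovered reads gave 0.00797. A limma fit with the replicate number as a block, which assumes that equal numbers are paired, gave an adjusted p of 0.0490. CecB rests on the fewest reads, 1896 in the overexpressing group and 817 in the control group.

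CecC showed a smaller difference. It was at 213, 200 and 241 FPKM in the overexpressing libraries, against 156, 186 and 95.0 FPKM in the control libraries. The groups did not overlap, although the lowest overexpressing value stood close to the highest control value. This was a log2 change of 0.63 ± 0.22 (SE, adjusted p = 0.228 by limma), and voom did not call it either (adjusted p = 0.0893). Without control replicate 3, the library with the lowest CecC, the log2 change was 0.35 (adjusted p = 0.228), and without control replicate 2 it was 0.83 (adjusted p = 0.163).

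Anp overlapped between the groups. It was at 244, 229 and 244 FPKM in the overexpressing libraries, against 191, 230 and 245 FPKM in the control libraries. The highest and the lowest value were both in control libraries. This was a log2 change of 0.11 ± 0.09 (SE, adjusted p = 0.627 by limma). Over the fits without a library it lay between 0.01 and 0.19.

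**Figure D1:**
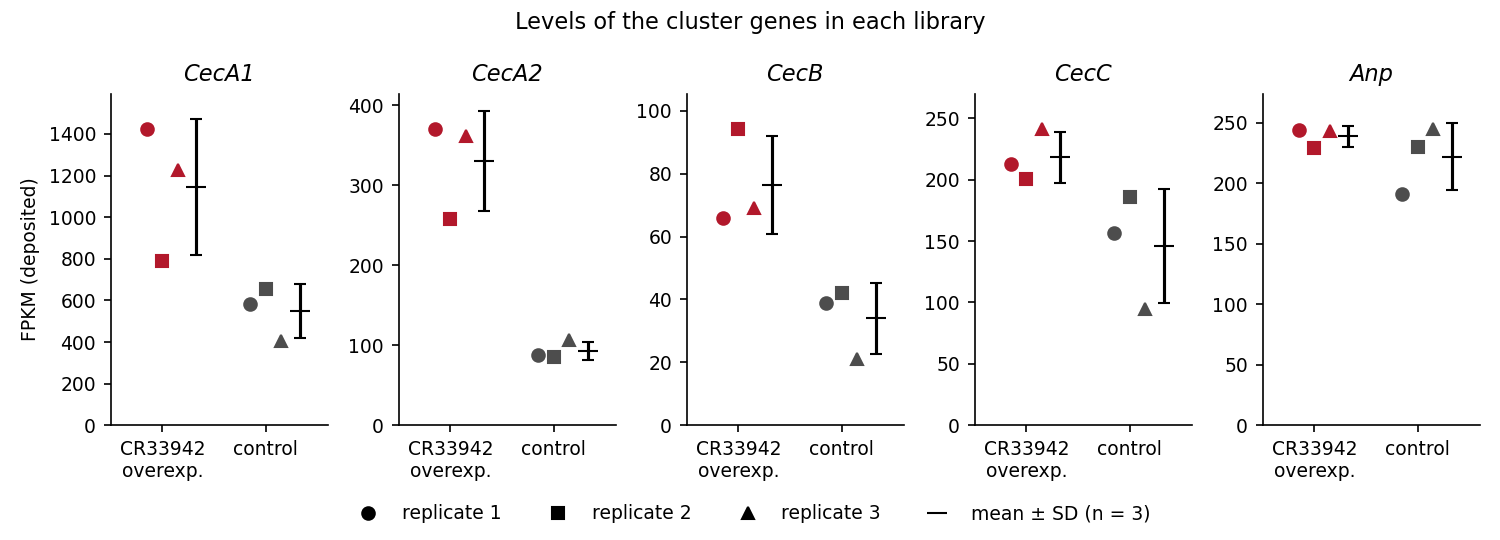
Deposited FPKM of each cluster gene in the 3 overexpressing and 3 control libraries, with the marker shape giving the replicate number and the bar the mean ± SD of 3 libraries. The groups are separate for the 4 cecropins and overlap for Anp. Overexpressing replicate 2 is the lowest of its group for CecA1, CecA2, CecC and Anp and the highest for CecB.

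So 1 of 5 members was called higher and 0 lower, where limma called 0.844% of all tested genes higher and 2.22% in either direction. Every overexpressing library exceeded every control library for 4 of 5 members, a pattern that 9.06% of all tested genes showed. Voom called 3 of 5 members higher (CecA1, CecA2 and CecB), against 1.26% of tested genes called higher and 3.73% called in either direction, and limma without overexpressing replicate 2 called 2 of 5 (CecA1 and CecA2), against 1.65% of tested genes called higher and 3.72% in either direction. The median log2 change over the 5 members was 1.05, that of CecA1, and over all tested genes it was 0.002. For each cecropin alone an exact two-sided permutation test gave p = 0.1, below which 3 libraries in each group cannot go, and for Anp it gave p = 0.7.

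**Figure D2:**
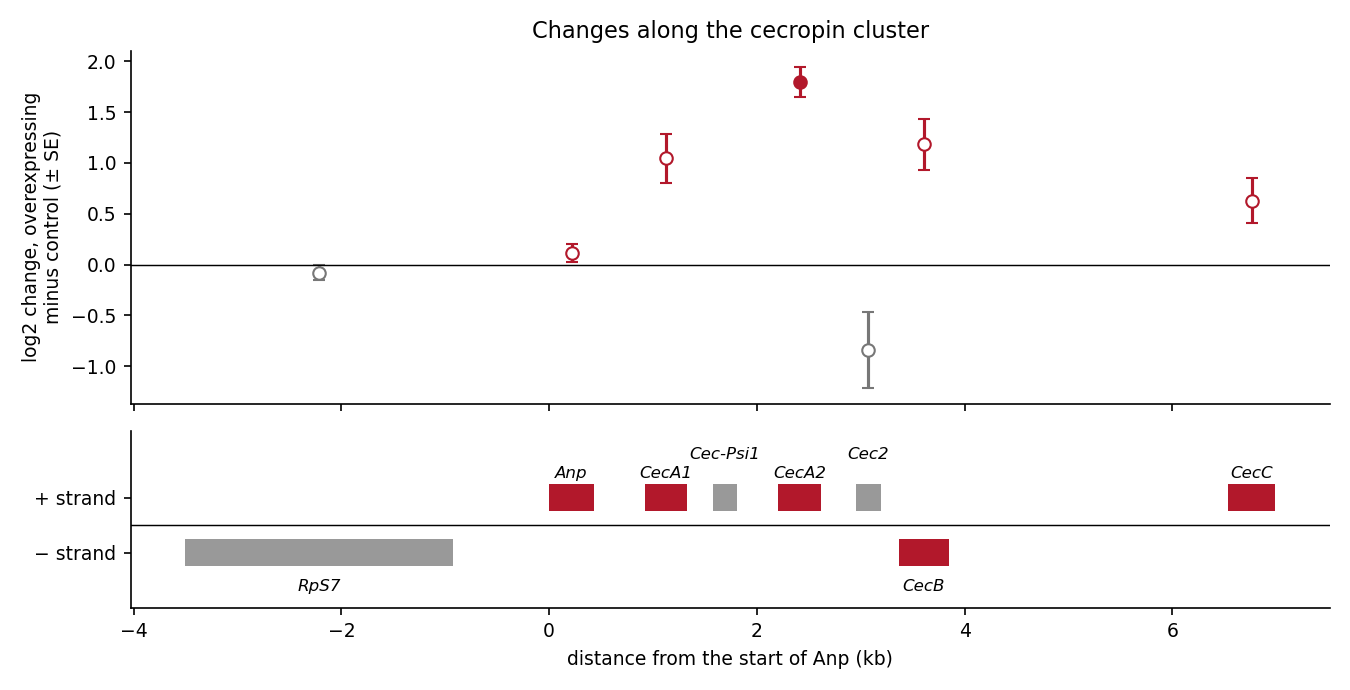
Log2 change ± SE (overexpressing minus control, limma, 3 libraries in each group) above the gene map, by distance in kb from the start of Anp, with cluster genes in red, other genes in grey and filled points for an adjusted p under 0.05. CecA2 in the middle of the cluster has the highest point at 1.80, and Anp and RpS7 at the left end lie near 0.

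None of the tested genes beside the cluster was called. Within 20 kb the annotation holds 13 other genes, none of them beyond CecC, and 6 of the 13 were tested. The 13 include the pseudogenes Cec-Psi1 and Cec2, which lie inside the cluster, and Cec2 is 1 of the 6 tested. Limma called 0 of these 6 and voom 0, where they called 2.22% and 3.73% of all tested genes. So few genes cannot tell 0 calls from those shares. Of the 6, 1 had an unadjusted p under 0.05, as did 15.7% of all tested genes. RpS7, a ribosomal protein gene that lies 927 nt before Anp, was at 858, 749 and 897 FPKM in the overexpressing libraries, against 853, 905 and 881 FPKM in the control libraries (log2 change -0.08 ± 0.08, limma adjusted p = 0.689). CG15531, CG9743 and CG9747 had log2 changes of -0.23, -0.06 and -0.11, with adjusted p of 0.229, 0.862 and 0.647. The tested small nucleolar RNA gene, snoRNA:Psi28S-2626, rested on 10 reads in the overexpressing group and 8 in the control group.

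The 2 cecropin pseudogenes counted above lie within the cluster. Cec-Psi1, between CecA1 and CecA2, was listed at 0 in all 6 libraries. Cec2, between CecA2 and CecB, had 8 recovered reads over the overexpressing libraries and 25 over the control libraries. Its log2 change of -0.84 ± 0.37 did not pass (SE, limma, adjusted p = 0.335), and no member of the cluster pointed downwards with it. Few reads were therefore assigned to the pseudogenes beside the 22569 and 10482 reads of CecA1.

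The order of the levels differed between the groups. In the overexpressing flies it ran CecA1, CecA2, Anp, CecC and CecB, with means of 1145, 330.0, 239, 218 and 76.4 FPKM. Anp and CecC overlapped there and the other neighbours in that order did not. In the control flies it ran CecA1, Anp, CecC, CecA2 and CecB, with means of 549, 222, 146, 93.3 and 34.0 FPKM. There CecC and CecA2 overlapped and the other neighbours did not. CecA1 ranked 58th by mean level among all genes of the table in the overexpressing flies and 196th in the control flies. CecA2 ranked 318th in the overexpressing flies and 955th in the control flies, and Anp 415th and 444th in the same order of groups.

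Summed over the 4 cecropins, the level was 2072, 1340 and 1898 FPKM in the overexpressing libraries, against 868, 970.5 and 629 FPKM in the control libraries. The means were 1770 ± 383 FPKM in overexpressing flies and 822 ± 175 FPKM in control flies (SD, n = 3 each), a ratio of 2.15. CecA1 made up the greater part of that sum in every library, with 68.7, 58.8 and 64.6% in the overexpressing libraries, against 67.3, 67.7 and 64.6% in the control libraries. Its share thus overlapped between groups (exact two-sided permutation p = 0.6).

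CecA2 took a larger share of the cecropin level in the overexpressing flies. Its share was 17.9, 19.2 and 19.1% in the overexpressing libraries, against 10.1, 8.84 and 16.9% in the control libraries. Control replicate 3 came within about 1 percentage point of the lowest overexpressing library, while the other control libraries were much lower. CecC held 10.3, 14.96 and 12.7% in the overexpressing libraries, against 18.0, 19.2 and 15.1% in the control libraries, so its share was lower although its own level was not. CecB held 3.17, 7.03 and 3.65% in the overexpressing libraries and 4.48, 4.32 and 3.38% in the control libraries, which overlapped. Without overexpressing replicate 2 the difference in the mean share turned from -2.53 to 0.088 percentage points for CecA1 and from 0.56 to -0.65 for CecB. The exact two-sided permutation p was 0.1 for CecA2 and for CecC, the smallest possible with 3 against 3 libraries, and 0.9 for CecB.

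**Figure D3:**
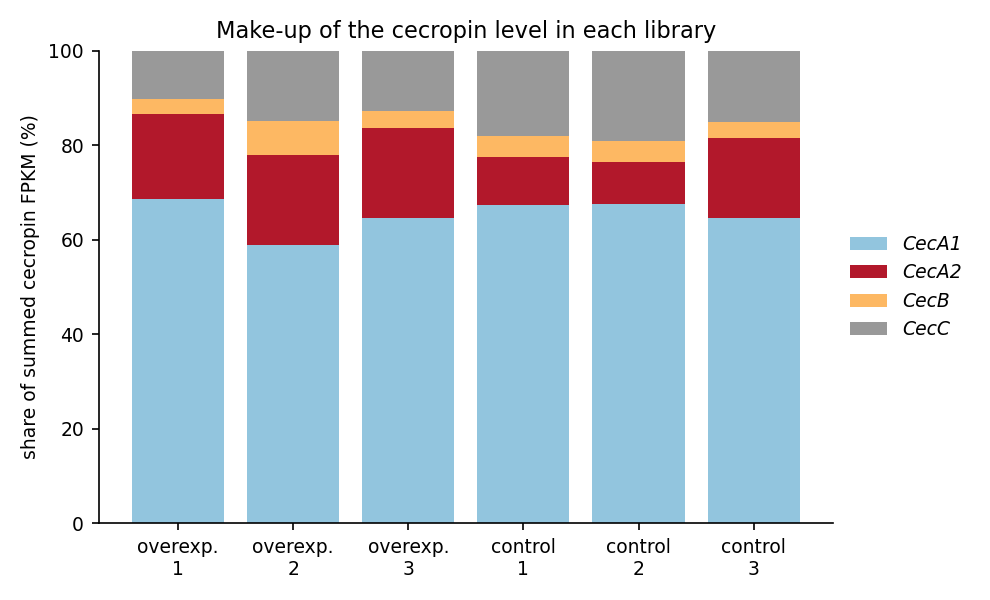
Share of the summed FPKM of the 4 cecropins held by each gene, in percent, in the 3 overexpressing and then the 3 control libraries. The CecA2 segment is between 17.9 and 19.2% in the overexpressing libraries and between 8.84 and 16.9% in the control libraries.

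The members were also set against each other within each library, as log2 ratios of FPKM + 1 for all 10 pairs. The groups did not overlap for 6 of the 10 pairs. These were the 4 pairs of a cecropin with Anp, and CecA2 and CecB each against CecC. Among all tested genes the ratio to Anp did not overlap for 14.2% and that to CecC for 62.7%, and the ratios to CecA1, CecA2 and CecB for 83.9, 99.4 and 96.3%. The log2 ratio of CecA2 to Anp was 0.60, 0.17 and 0.57 in the overexpressing libraries, against -1.11, -1.41 and -1.198 in the control libraries. CecA2 thus exceeded Anp in every overexpressing library and lay below it in every control library.

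The log2 ratio of CecA2 to CecC was 0.80, 0.36 and 0.58 in the overexpressing libraries, and -0.82, -1.11 and 0.16 in the control libraries. The log2 ratio of CecA1 to CecA2 was 1.94, 1.61 and 1.76 in the overexpressing libraries, against 2.72, 2.92 and 1.93 in the control libraries. These 2 groups touched, because control replicate 3 lay just under overexpressing replicate 1. The difference of -0.75 therefore did not separate the CecA copies (exact two-sided permutation p = 0.2, adjusted over the 10 pairs 0.222), and it was -1.05 without control replicate 3. For the 6 pairs that did not overlap the exact permutation p was 0.1, or 0.167 adjusted over the 10 pairs, and 0.1 is the lowest this design allows.

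The cecropins varied more between replicate libraries than most genes did. Their SD within a group, pooled over both groups on the log2(FPKM + 1) scale, was 0.40 for CecA1, 0.24 for CecA2, 0.42 for CecB and 0.37 for CecC. These exceeded the SD of 99.2, 96.2, 99.3 and 99.0% of the 6740 tested genes with a mean of at least 10 FPKM, in that order, whose median SD was 0.09. Anp had an SD of 0.14, above 79.5% of those genes. For CecA1, the member with the most reads, counting error was a small part of the spread. Its coefficient of variation was 28.4% in the overexpressing libraries and 23.5% in the control libraries, where its read numbers alone would give 1.15% and 1.69%. The gap was narrower for CecA2 in the control libraries (12.0% against 4.03%), and in the overexpressing libraries for CecC (9.58% against 2.48%) and Anp (3.56% against 2.41%).

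The libraries that departed were not the same for every member. Overexpressing replicate 2 was below its group mean for CecA1, CecA2 and CecC, by 0.50, 0.34 and 0.12 on the log2 scale, and above it by 0.32 for CecB. Control replicate 3 fell below its group mean by 0.40, 0.60 and 0.56 for CecA1, CecB and CecC, and was above it by 0.19 for CecA2. The deviations of CecB and CecC correlated at r = 0.76 over the 6 libraries and those of CecA1 and CecC at r = 0.72, whereas those of CecA2 and CecB had r = -0.84. These are 6 points that share library and scaling, and are given as a description.

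**Figure D4:**
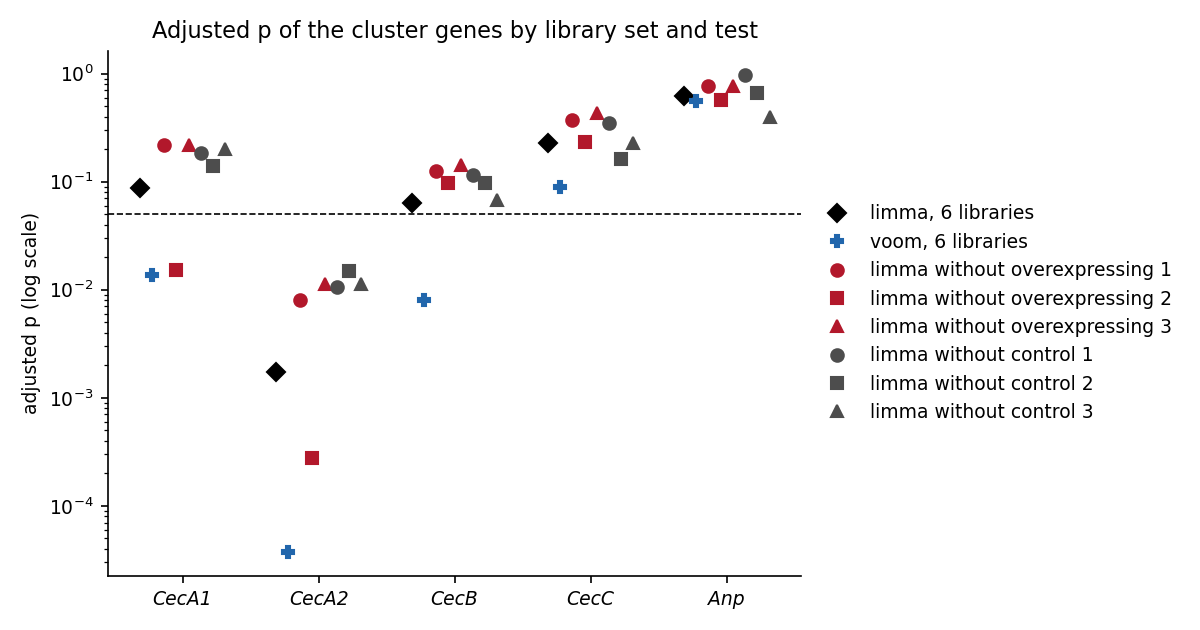
Adjusted p of each cluster gene on a log scale, from limma on all 6 libraries, from voom on recovered reads, and from limma without each library in turn, with the dashed line at 0.05. Every CecA2 point lies below the line, CecA1 has 2 points below it, CecB has only the voom point below it, and CecC and Anp have none.

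Other antimicrobial peptide genes gave a mixed picture beside the cecropins. The list was written with earlier results of these data known. With 14 of them tested, 3 were called higher by limma and 0 lower, against 0.844% and 1.38% of all tested genes, and 11 had a log2 change above 0. Their median log2 change was 0.29, against 0.002 over all tested genes. Voom called 5 of the 14 higher (AttB, AttC, AttD, Def and edin), against 1.26% of all tested genes called higher. Of the 14, 6 had an unadjusted p under 0.05 (limma), against 15.7%, and Mtk, which was lower, is among them. The attacin gene AttD did not pass by limma, but its log2 change lay between those of CecB and CecA1. The log2 changes of Def and edin exceeded that of CecC. Def, which encodes defensin, was at 2187, 1611 and 1893 FPKM in the overexpressing libraries, against 1112, 1081 and 795 FPKM in the control libraries (log2 change 0.93 ± 0.15, limma adjusted p = 0.0261). The attacin gene AttC averaged 3237 ± 159 FPKM in overexpressing flies and 2162 ± 260.2 FPKM in control flies (SD, n = 3 each; limma adjusted p = 0.0249). The gene edin, an infection-induced secreted peptide, averaged 2218 ± 286 FPKM in overexpressing flies and 1409 ± 179 FPKM in control flies (limma adjusted p = 0.0437). Def held its call in 1, AttC in 2 and edin in 1 of the 6 fits without a library, with adjusted p of up to 0.0906, 0.107 and 0.147. Def and AttC held theirs without overexpressing replicate 2 and AttC also without control replicate 1, and edin held its call without overexpressing replicate 3.

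The 2 most abundant peptide genes did not pass. DptA, a diptericin gene of the Imd response, averaged 12883 ± 652 FPKM in overexpressing flies and 12162 ± 1437 FPKM in control flies, and DptB 9882 ± 78.8 FPKM in overexpressing flies and 10183 ± 714 FPKM in control flies (SD, n = 3 each; limma adjusted p = 0.740 and 0.856). As a share of the summed FPKM of the listed peptide genes, the cecropins held 3.75, 2.71 and 3.64% in the overexpressing libraries, against 1.71, 2.01 and 1.41% in the control libraries. That sum leaves out the drosomycin gene Drs, which was not analysed here. Drsl1 was listed at 0 in every library, and Drsl6 in all control libraries and 1 overexpressing library.

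**Figure D5:**
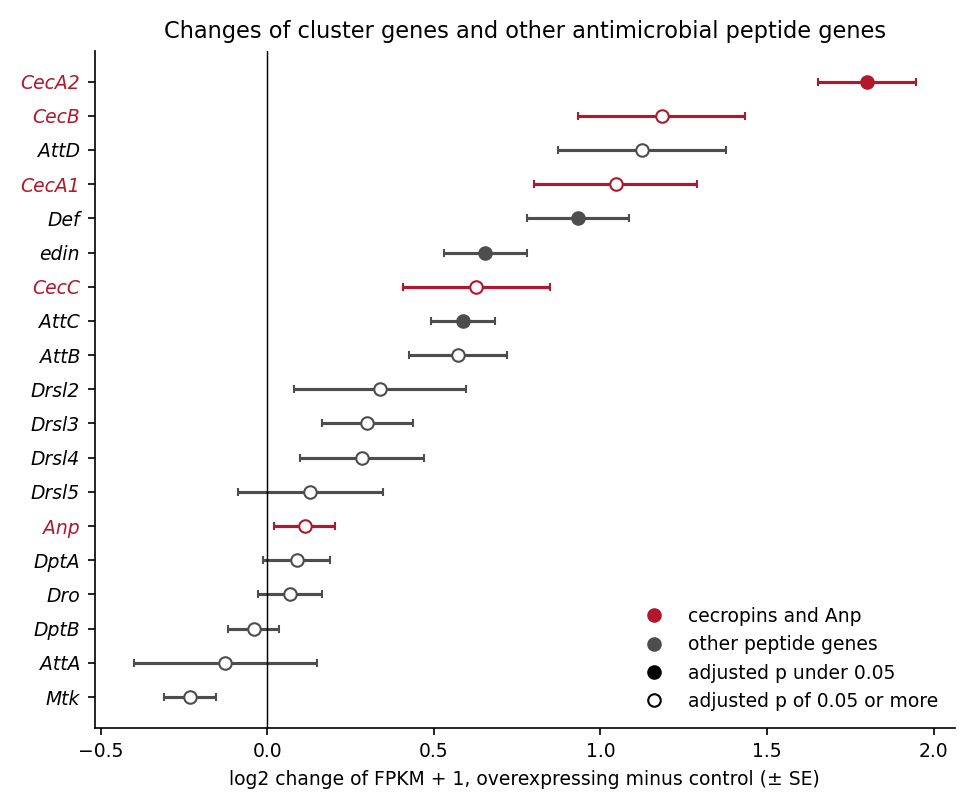
Log2 change of FPKM + 1 ± SE (overexpressing minus control, limma, 3 libraries in each group) for the 5 cluster genes in red and 14 other antimicrobial peptide genes in grey, ordered by size, with filled points for an adjusted p under 0.05. CecA2, CecB, the attacin gene AttD and CecA1 are the 4 highest points, in that order. CecA2, CecB and CecA1 are at 1.80, 1.18 and 1.05, while Anp lies near 0 at 0.11.

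Components of the Imd pathway, the main route to the cecropins, were called by limma in 1 case on all 6 libraries. Among 17 activating components 1 was called higher, against 0.844% of all tested genes, and their median log2 change was 0.11. Voom called 2 of the 17 higher, against 1.26% of all tested genes. Of the 17, 6 had an unadjusted p under 0.05 (limma), against 15.7%. Without overexpressing replicate 2 limma called 3 of the 17 higher, PGRP-SD, Rel and Diap2, against 1.65% of all tested genes. The 1 that limma called on all 6 libraries was PGRP-SD, a secreted peptidoglycan recognition protein. It averaged 639 ± 43.8 FPKM in overexpressing flies and 490.1 ± 25.1 FPKM in control flies (SD, n = 3 each, limma adjusted p = 0.0381). It held the call only without overexpressing replicate 2 among the 6 fits without a library (adjusted p up to 0.127). The abundant ubiquitin-conjugating enzyme gene eff had a log2 change of -0.02 (limma adjusted p = 0.947). Among 11 restraining components 0 were called by limma on all 6 libraries, and 3 had an unadjusted p under 0.05, as did 15.7% of all tested genes. Voom called 1 higher, against 1.26% of all tested genes called higher. Limma without control replicate 1 also called 1 higher, where it called 88 of the 12326 tested genes in either direction. PGRP-SC2, an amidase that degrades peptidoglycan, averaged 498 ± 6.09 FPKM in overexpressing flies and 381 ± 59.0 FPKM in control flies (limma adjusted p = 0.109), and PGRP-SB1 1261 ± 101 FPKM in overexpressing flies and 1175 ± 106 FPKM in control flies (limma adjusted p = 0.650).

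Toll components and the Bomanins, short secreted peptides induced through Toll, had 0 limma calls on all 6 libraries. Among 21 tested Toll components voom called 3, all lower, against 2.47% of all tested genes called lower, and 6 had an unadjusted p under 0.05, against 15.7%. Without overexpressing replicate 2 limma called nec and the Toll ligand gene spz higher and GNBP3, a recognition protein gene, lower, against 1.65% and 2.08% of all tested genes. SPE, the protease that activates the Toll ligand, averaged 264 ± 14.1 FPKM in overexpressing flies and 323 ± 9.42 FPKM in control flies (limma adjusted p = 0.0507, voom adjusted p = 0.0163). The serpin gene nec, a brake on the cascade, had a log2 change of 0.12 (limma adjusted p = 0.711), and of 0.28 without that library (adjusted p = 0.0398). Among 14 Bomanin and Daisho genes 0 were called by limma, against 2.22% of all tested genes, and 5 by voom, all lower, against 2.47%. Of the 14, 7 had an unadjusted p under 0.05, against 15.7%. Without overexpressing replicate 2 limma called 3 lower and 1 higher, the Daisho gene Dso2, against 2.08% and 1.65%. Their median log2 change was -0.18. BomS1 and BomS3, the most abundant of them, had log2 changes of -0.10 and -0.05 (limma adjusted p = 0.600 and 0.827).

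Of 10 transcription factors that have been tied to cecropin genes, 0 were called by limma, against 2.22% of all tested genes. Voom called 1, dl, lower, against 2.47% of all tested genes called lower. An unadjusted p under 0.05 (limma) was found for 2 of the 10, against 15.7% of all tested genes. Rel, which encodes Relish, was at 178, 126 and 167 FPKM in the overexpressing libraries, against 121, 132 and 101 FPKM in the control libraries. Overexpressing replicate 2 fell within the control range, and the log2 change of 0.40 ± 0.14 did not pass (SE, limma, adjusted p = 0.234). Without that library it was 0.55 and passed (limma adjusted p = 0.0455), the only call among the 10 factors in that fit. There 1.65% of all tested genes were called higher. The Toll pathway's own NF-kB genes, Dif and dl, had log2 changes of -0.10 ± 0.06 and -0.27 ± 0.07 (SE, limma, adjusted p = 0.455 and 0.135). The GATA factor genes srp and pnr had log2 changes of 0.07 and -0.08, foxo -0.08, the POU factor gene nub 0.27, the homeobox genes cad and zfh1 0.005 and 0.17, and Deaf1 0.07. The adjusted p of these 7 ranged from 0.376 to 0.986 (limma).

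The labels name flies and no dissected tissue, so a change in the number of producing cells and a change in RNA per cell cannot be told apart. Fat body markers were the list with the most limma calls. Among 10 tested, 4 were called lower, against 1.38% of all tested genes, and 0 higher, all 10 had log2 changes below 0, and none was at 0 FPKM in a library. Their summed level was 437 to 501 FPKM in the overexpressing libraries and 671 to 710 FPKM in the control libraries, and the median log2 change was -0.43. The called members were Gnmt (193 ± 25.5 FPKM in overexpressing flies and 322 ± 9.98 FPKM in control flies), fat-spondin, mdy and Apoltp. The most abundant lipoprotein gene, apolpp, had a log2 change of -0.55 ± 0.18 (SE, limma, adjusted p = 0.205). Voom called 5 of the 10 lower, against 2.47% of all tested genes. Of the 10, 8 had an unadjusted p under 0.05 (limma), against 15.7%. Limma called 7 lower without overexpressing replicate 2, apolpp among them (log2 change -0.74, adjusted p = 0.0379), where 2.08% of all tested genes were called lower. It called 1 without control replicate 2, where it called 72 of the 12326 tested genes in either direction. In each of the other 4 fits without a library it called 2, where it called 88 to 125 of all tested genes. The calls of mdy and Apoltp held only without overexpressing replicate 2 among the 6 fits without a library (adjusted p up to 0.130 and 0.171), that of Gnmt was lost without control replicate 2 (0.0587), and that of fat-spondin was kept in all 6. Their part in the cecropin result was not tested.

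Summed haemocyte markers overlapped between the groups. Among 6 tested, limma called 1 lower, against 1.38% of all tested genes: NimC1, a phagocytosis receptor gene, with 3.16 ± 0.18 FPKM in overexpressing flies and 4.93 ± 0.198 FPKM in control flies (SD, n = 3 each; limma adjusted p = 0.0207). That call held only without overexpressing replicate 2 among the 6 fits without a library (up to 0.0922). The summed level was 88.5 to 97.0 FPKM in the overexpressing libraries and 92.7 to 96.0 FPKM in the control libraries, with a median log2 change of -0.07. Hml and crq, the most abundant, had log2 changes of 0.01 and -0.01 (limma adjusted p = 0.984 and 0.969). Of the 6 tested markers, 5 had log2 changes below 0.

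Anp was set beside markers of the male tract, where andropin is made. Over all tested genes limma called 2.22% and voom 3.73%, and 15.7% had an unadjusted p under 0.05 (limma). Among 5 tested ejaculatory duct and bulb markers 0 were called by limma and 0 by voom, and 1 had an unadjusted p under 0.05. Their summed level was 3973 to 4732 FPKM in the overexpressing libraries and 4460 to 5282 FPKM in the control libraries, and Obp56e, not tested, was listed at 0 in 2 overexpressing and 2 control libraries. Their part in the Anp values was not tested. EbpII and EbpIII, ejaculatory bulb proteins, had log2 changes of -0.16 and -0.18 (limma adjusted p = 0.679 and 0.286). Dup99B and Est-6, of the same list, went the other way, with log2 changes of 0.13 and 0.11 (limma adjusted p = 0.407 and 0.682). Of the 5 tested markers, 2 were above 0 and 3 below. Among 10 accessory gland markers 0 were called by limma and 0 by voom, with 2 at an unadjusted p under 0.05, against 15.7%. Acp53Ea and Acp62F had log2 changes of 0.004 and 0.06, while 6 of the 10 were below 0 and the median was -0.04. Among 7 tested testis markers 0 were called by limma and 0 by voom, with 0 at an unadjusted p under 0.05. Mst87F and Mst98Ca had log2 changes of 0.005 and 0.01. Among 8 gut markers 0 were called by limma and 1 by voom, higher, against 1.26% of all tested genes called higher by voom. Of the 8, 1 had an unadjusted p under 0.05, against 15.7%. Jon65Aiii and Jon65Aiv had log2 changes of -0.13 and -0.08, and 6 of the 8 were below 0. The gene that voom called, betaTry, had a log2 change of 0.57 (limma adjusted p = 0.148). Summed levels of accessory gland, testis and gut markers overlapped between the groups.

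The genes most alike to the cecropins in pattern were found by Pearson's r over the 6 libraries with the mean log2(FPKM + 1) of the 4 cecropins, among 6735 tested genes with a mean of at least 10 FPKM. The highest were CG5849 and Pu, both at r = 0.998, followed by Fim at 0.996, CG12691 at 0.994 and CG1774 at 0.990. Pearson's r takes no account of the size of a change. CG5849 and CG12691 had log2 changes of 0.58 and 0.32 (limma adjusted p = 0.0183 and 0.0485). Those of Fim and CG1774 were 0.23 and 0.21 (limma adjusted p = 0.0917 and 0.112). Pu encodes GTP cyclohydrolase, the first enzyme of pteridine synthesis, and Fim the actin-bundling protein fimbrin. Pu was at 168, 143 and 173 FPKM in the overexpressing libraries, against 90.2, 95.2 and 65.9 FPKM in the control libraries (log2 change 0.95 ± 0.14, limma adjusted p = 0.019). All 5 genes were chosen for this likeness, so their values are a description. In all, 143 of the 6735 genes had r above 0.9. Among the other antimicrobial peptides r ranged from -0.85 to 0.98 with a median of 0.62. Def had 0.98 and AttC 0.98, whereas Mtk, the metchnikowin gene, had -0.85.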

How the data were processed

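Total RNA of adult male flies 12 h after injection made 6 libraries. The labels give poly-T selection and paired-end sequencing. Per the labels' protocols, HISAT2 2.0.5 aligned the reads, featureCounts 1.5.0-p3 counted them per gene, and the authors ran DESeq2. The submitters' processing notes name dm6 as the build. The authors deposited 1 FPKM value per gene and library, and the sources used here do not give how counts became FPKM or which strand setting was used. FPKM multiplied by exon length and a factor per library gave whole reads (tolerance 0.01) for 15276 of 15918 genes above 0, and for all 5 members; for 642 other genes a length was solved. Those factors differed by at most 0.281% from size factors made by median of ratios.

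Here limma 3.58.1 in R 4.3.3 (lmFit, eBayes with trend) was fitted on log2(FPKM + 1), two-sided, without a block, to genes reaching 1 FPKM in 3 or more of the 6 libraries; fold changes of low genes are understated on that scale. Alternatives were a pseudocount of 0.1, no filter, equal sums, voom on recovered reads, no trend, a replicate block, and each library left out. The members and lists were chosen with earlier results of these data known. Named were the members, CR33942, pseudogenes and genes within 20 kb, called and the 2 most abundant members of each list, all 10 listed transcription factors, and the 5 genes most alike in pattern. Some other list members were named to show changes that these leave out. Of the listed symbols, Drs, spheroide, FASN1, Peb and PebIII were not paired with the table.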

Additional observations from a re-analysis of the deposited data

How the results depend on the processing

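Of 374 values under an alternative, 320 kept their direction, side of the threshold or size. The ratios and shares among the 374 were tested by permutation, which cannot pass the threshold with so few libraries. With voom on recovered reads 460 genes were called in place of 274, with CecA1 (log2 change 1.05) and CecB (1.20) past the threshold and 3 members called; other antimicrobial peptides had 5 calls, Bomanins and Daisho 5, activating Imd components 2, restraining ones 1, Toll components 3, the transcription factors 1 and gut markers 1. Both groups use the same replicate numbers, and it is not known here whether equal numbers mark a pair. Deviations of same-numbered libraries correlated at -0.05, -0.18 and 0.03, which does not decide it. With the number as a replicate block limma called 110 genes, and 2 members, CecB passing at 1.18 (adjusted p = 0.0490). Without 1 library the count of called genes lay between 72 and 459 (459 without overexpressing replicate 2), members called between 1 and 2, and the log2 change of CecA1 between 0.84 and 1.29. Without overexpressing replicate 2 the difference between groups in the log2 ratio of CecA1 to CecB turned to 0.27, that in the share of CecA1 to 0.088 percentage points and that in the share of CecB to -0.65. Over all 6 omissions these ranged from -0.41 to 0.27, from -4.87 to 0.088 and from -0.65 to 1.28. Their exact permutation p cannot go below 0.1 on 6 libraries or 0.2 without 1 library, so none could pass. Calls without 1 library ranged from 0 to 3 for other antimicrobial peptides, 0 to 4 for Bomanins and Daisho, 0 to 3 for activating and 0 to 1 for restraining Imd components, 0 to 3 for Toll components, 0 to 1 for the transcription factors and haemocyte markers, and 1 to 7 for fat body markers, whose median ranged from -0.48 to -0.37. The highest of these counts came without overexpressing replicate 2, except that of restraining Imd components, which came without control replicate 1. The cause was not tested. The spread between 3 libraries limits the cecropin values more than depth, since it exceeds counting error.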
